A study of Homo sapiens with 6 samples.

Results

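The 10 genes described here encode antimicrobial peptides and proteins of epithelial surfaces: the beta-defensins DEFB1, DEFB4A, DEFB4B, DEFB103A and DEFB103B, the cathelicidin CAMP, the siderophore-binding lipocalin LCN2, the ribonuclease RNASE7, lysozyme (LYZ) and lactoferrin (LTF). They were taken by symbol, and all 10 are among the 46427 genes of the deposited table. The table holds mRNA sequencing, from a stranded kit, of VK2/E6E7, a vaginal epithelial line that carries the E6 and E7 genes of a papillomavirus as its means of immortalisation and is labelled WT. One set of cells was given 1e8 CFU/mL of HMU, the bacterium Lactobacillus salivarius HHuMin-U, the other was given PBS, and both were harvested after 6 h, with 3 samples per group, described by the submitters as biological replicates. Both groups grew in keratinocyte medium without serum, to which EGF, bovine pituitary extract and antibiotics had been added. The line is 1 immortalised culture without the other cells of a mucosa, and since the labels do not say whether these came from separate cultures, p-values measure the spread between these samples, which may be technical.

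Antimicrobial peptides and proteins are made by epithelial cells and by neutrophils. Beta-defensins and the cathelicidin peptide LL-37 are cationic peptides that disrupt bacterial membranes, and RNASE7 is a cationic ribonuclease that kills bacteria independently of its cleavage of RNA. LCN2 captures bacterial siderophores and lactoferrin binds iron, so that both withhold iron from microbes, and lysozyme cleaves peptidoglycan. DEFB1 is known as a mostly constitutive defensin of urogenital epithelia, whereas DEFB4A, LCN2 and RNASE7 are known to respond to bacteria and to inflammatory cytokines in skin and mucosal keratinocytes.

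LCN2, RNASE7 and DEFB1 rose in HMU-treated cells, by 30.4-fold, 3.76-fold and 4.73-fold. The DEFB1 value rests on 25 reads in the PBS libraries together, so it is not ranked above RNASE7. DEFB1 also passed the filter on low counts through its HMU libraries. CAMP was detected at a few reads per library in both groups and did not pass the test. The other 6 genes had at most 14 reads in any library and did not pass the filter on low counts. LCN2 was the only member that reached a high level: the deposited TPM, which are scaled by transcript length, averaged 149 ± 5.53 for LCN2 in HMU libraries, against 6.44 ± 1.13 in PBS libraries (SD, n = 3 each).

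The 250 bases before the RefSeq transcription start are shown for LCN2 and RNASE7, which rose, and for CAMP, which did not pass the test, from the plus strand of GRCh38.p14. DEFB1, which also rose, was not scanned, so these windows do not compare genes that rose with genes that did not. Capitals mark matches on either strand to the letters of NF-kB (GGG, any 5 bases, CC), C/EBP (TTNNGNAA) or AP-1 (TGANTCA).

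LCN2, chr9:128149203-128149452: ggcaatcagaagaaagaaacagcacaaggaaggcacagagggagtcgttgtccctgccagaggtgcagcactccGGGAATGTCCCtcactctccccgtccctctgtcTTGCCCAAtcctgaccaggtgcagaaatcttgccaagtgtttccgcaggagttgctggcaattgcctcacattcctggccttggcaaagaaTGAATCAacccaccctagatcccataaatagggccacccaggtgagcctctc

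RNASE7, chr14:21042112-21042361: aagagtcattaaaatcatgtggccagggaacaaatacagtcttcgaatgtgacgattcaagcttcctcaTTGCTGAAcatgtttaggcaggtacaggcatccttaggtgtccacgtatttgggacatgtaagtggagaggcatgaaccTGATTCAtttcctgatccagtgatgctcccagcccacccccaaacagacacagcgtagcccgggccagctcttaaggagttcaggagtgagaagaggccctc

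CAMP, chr3:48223245-48223494: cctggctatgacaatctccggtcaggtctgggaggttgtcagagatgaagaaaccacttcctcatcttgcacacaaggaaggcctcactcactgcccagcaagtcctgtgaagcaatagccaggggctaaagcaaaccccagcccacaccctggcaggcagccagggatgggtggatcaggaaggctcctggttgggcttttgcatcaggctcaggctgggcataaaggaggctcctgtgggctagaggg

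The LCN2 window held the NF-kB letters on the plus strand at bases 176 to 167 before the start, and on the minus strand at bases 175 to 166, so these 2 matches overlap. It also held the C/EBP letters at bases 143 to 136 and the AP-1 letters at bases 52 to 46. The RNASE7 window held the C/EBP letters at bases 181 to 174 and the AP-1 letters at bases 102 to 96. The CAMP window held none of the 3. Among the same windows of 35116 promoters, 54.4% held the NF-kB letters, 33.2% the C/EBP letters and 6.57% the AP-1 letters. A match of letters is a description of the sequence and is not evidence of binding.

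Libraries held 64370749 to 65957584 counts in HMU and 64292566 to 65593367 in PBS samples. HMU replicate 2 stood apart within its group. Its counts differed from those of HMU replicates 1 and 3 by a chi-square of 68.8 and 118 for each degree of freedom, against 14.4 between these 2 and 5.12 to 6.25 between PBS libraries. Levels below are CPM, counts scaled to library size, adjusted by TMM, a library scaling that assumes most genes do not change. The floor of 3 counts was 0.0495 to 0.0522 CPM in HMU and 0.0416 to 0.0424 CPM in PBS libraries. Genes were called at an edgeR quasi-likelihood p, adjusted by Benjamini-Hochberg over 17990 genes tested, under 0.05. By that rule 24.8% of all genes tested were higher and 24.9% were lower, 49.7% in either direction. Scaling by library sizes only moved the median log2 fold change of all genes to -0.28, and 23.5% of called genes were then higher, against 49.8% with TMM. Of the 10 members, 4 passed the filter on low counts, and of those 3 were higher and 0 were lower (also 0 by DESeq2, and 0 at an unadjusted p under 0.05). DEFB1 passed that filter through its HMU libraries, since a single PBS library reached 10 reads, so the share of called members is no measure of the family.

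**Figure D1:**
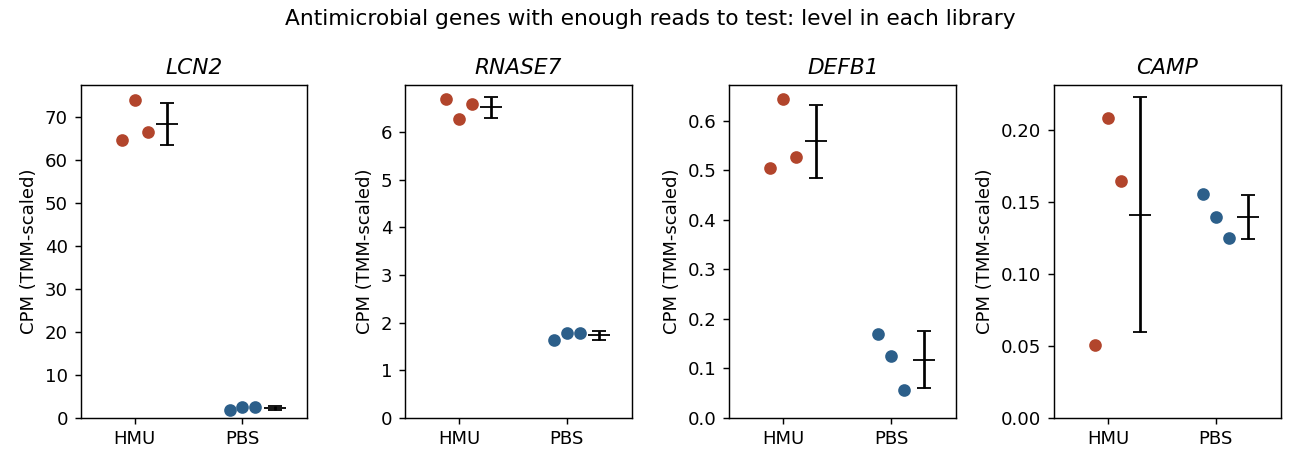
Level of the 4 testable antimicrobial genes in each library, in TMM-scaled CPM (vertical axes from 0, a separate scale for each gene), with HMU libraries left of PBS libraries; bars are mean and SD of 3 libraries. LCN2, RNASE7 and DEFB1 show no overlap between the groups, and the CAMP values overlap.

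LCN2, lipocalin 2 or neutrophil gelatinase-associated lipocalin, binds catecholate siderophores such as enterobactin (gene ID 3934, chromosome 9 from 128149453 to 128153453, RefSeq annotation of GRCh38.p14, as for all positions that follow). It had 64.8, 73.9 and 66.6 CPM in HMU replicates 1 to 3, against 1.81, 2.51 and 2.43 CPM in PBS replicates 1 to 3. The groups did not overlap, which was also the case, with HMU above PBS, for 30.3% of all genes tested. The log2 fold change was 4.93 ± 0.14 SE (edgeR adjusted p = 4.3e-07), and 4.87 without HMU replicate 2. Of all genes tested, 91 had a larger fitted log2 fold change, which is 0.506%. In TPM, 846 genes of the table averaged higher than LCN2 in HMU libraries and 10271 in PBS libraries.

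RNASE7 (gene ID 84659, chromosome 14 from 21042362 to 21044233) encodes a secreted ribonuclease of skin and urogenital epithelium. It had 6.70, 6.28 and 6.59 CPM in HMU replicates 1 to 3, against 1.62, 1.79 and 1.79 CPM in PBS replicates 1 to 3. The 3 values in each group lay close together, and the groups did not overlap. The log2 fold change was 1.91 ± 0.10 SE (edgeR adjusted p = 7.4e-06), and 1.94 without HMU replicate 2; 594 genes, or 3.30% of those tested, had a larger one.

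DEFB1, human beta-defensin 1 (gene ID 1672, chromosome 8 from 6870592 to 6877936), was present at low levels. It had 30, 37 and 32 reads in HMU replicates 1 to 3, against 12, 9 and 4 reads in PBS replicates 1 to 3. That is 0.506, 0.644 and 0.528 CPM after HMU, against 0.170, 0.126 and 0.0555 CPM after PBS. The lowest HMU library lay above the highest PBS library, and PBS replicate 3 was the lowest of all. The log2 fold change was 2.24 ± 0.36 SE (edgeR adjusted p = 0.0017). It was 2.13 without HMU replicate 2 and 1.90 without PBS replicate 3, with edgeR adjusted p = 0.0016 and 0.0057. All 3 called members, of 4 tested, rose by at least 2-fold. Over all genes tested, 4457 were called higher at an edgeR adjusted p under 0.05. Of those, 1452 rose by at least 2-fold, which is 8.07% of all genes tested. DEFB1 passed the filter on low counts through its HMU libraries, so these shares do not compare like with like.

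CAMP (gene ID 820, chromosome 3 from 48223495 to 48225485), the precursor of LL-37, had 3, 12 and 10 reads in HMU replicates 1 to 3, against 11, 10 and 9 reads in PBS replicates 1 to 3. HMU replicate 1 was the lowest library and HMU replicate 2 the highest, so the HMU values enclosed all PBS values. The summed reads, 25 in HMU and 30 in PBS libraries, give a scaled ratio of 1.01 with a 95% exact binomial interval from 0.568 to 1.77, which covers counting error only. The fitted log2 fold change was 0.012 ± 0.48 SE (edgeR adjusted p = 0.99), and its direction turned with the scaling and with the library left out. The spread between the HMU libraries, 3 to 12 reads, is wide beside that of the PBS libraries, 9 to 11 reads.

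**Figure D2:**
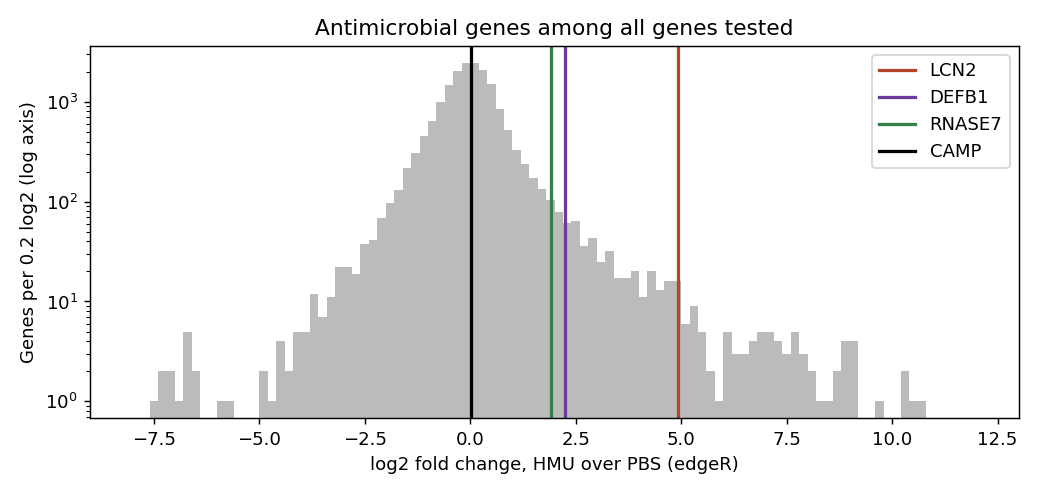
Distribution of the log2 fold change, HMU over PBS, over 17990 genes tested (vertical axis: genes per bin, log scale), with lines at LCN2 (4.93), DEFB1 (2.24), RNASE7 (1.91) and CAMP (0.012). LCN2 lies far out in the upper tail, DEFB1 and RNASE7 on its inner part, and CAMP at the centre.

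DEFB4A and DEFB4B (gene IDs 1673 and 100289462, both on chromosome 8) are near-identical copies that encode beta-defensin 2, the defensin best known for its induction in inflamed epithelium. DEFB4A had 2, 0 and 3 reads in HMU replicates 1 to 3, against 0 reads in each PBS library. DEFB4B had a single read, in HMU replicate 3, and 0 in each PBS library. Together these are 6 reads in HMU libraries and 0 in PBS libraries, which is on average under 3 reads per library, so no fold is given. A count of 0 allows up to those 0.0416 to 0.0424 CPM in a PBS library. In a fit with no filter on low counts neither copy was called (edgeR adjusted p = 0.18 for DEFB4A and 0.43 for DEFB4B).

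DEFB103A and DEFB103B (gene IDs 414325 and 55894, chromosome 8), the copies that encode beta-defensin 3, had identical counts: 0, 1 and 0 reads in HMU replicates 1 to 3, against 0, 1 and 2 reads in PBS replicates 1 to 3. With near-identical copies the division of reads between them is uncertain. LYZ, lysozyme (gene ID 4069, chromosome 12), had 0, 4 and 0 reads in HMU libraries, against 0 in each PBS library. LTF, lactoferrin (gene ID 4057, chromosome 3), had 14, 0 and 0 reads in HMU libraries, against 6, 5 and 0 reads in PBS libraries. All LYZ reads and all HMU reads of LTF thus came from single libraries, and the groups overlapped for each of these genes. Of the 36 counts of the 6 untested genes, 23 were 0. In the fit without a filter, edgeR adjusted p was 0.64 for DEFB103A and DEFB103B, 0.29 for LYZ and 0.82 for LTF. With 0 to 14 reads per library, the filter on low counts left these genes out of the test reported for the others.

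**Figure D3:**
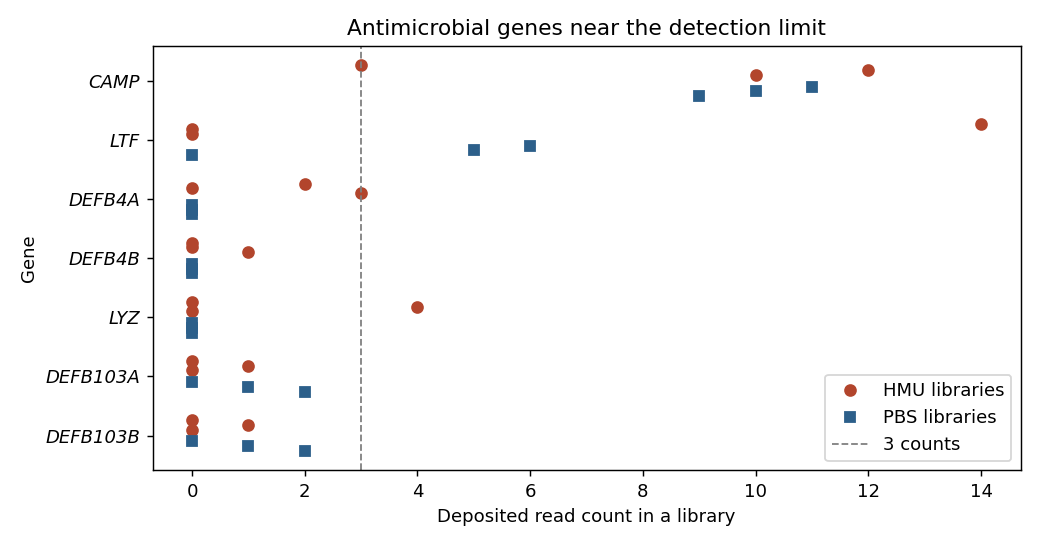
Deposited read counts (horizontal axis) of CAMP and of the 6 genes that did not pass the filter on low counts, with circles for HMU libraries drawn above squares for PBS libraries and a dashed line at 3 counts. Most values are at 0 to 3 counts, and the 14 reads of LTF in HMU replicate 1 are the highest count of an untested gene.

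Ranked by deposited TPM, the order of the members in HMU libraries was LCN2, RNASE7, DEFB1 and CAMP, followed by the untested genes. RNASE7 averaged 8.56 ± 0.861 TPM in HMU libraries, against 2.99 ± 0.186 TPM in PBS libraries (SD, n = 3, as for the next values). DEFB1 averaged 2.60 ± 0.185 TPM in HMU libraries, against 0.706 ± 0.354 TPM in PBS libraries. For CAMP the averages were 0.394 ± 0.222 TPM in HMU libraries and 0.523 ± 0.0644 TPM in PBS libraries. In HMU libraries no neighbours among these 4 overlapped. In PBS libraries DEFB1, at 0.322 to 1.02 TPM, enclosed CAMP, at 0.464 to 0.592 TPM, so these 2 could not be ordered.

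Ratios of called members within each library, where scaling has no part, describe the unequal rise of LCN2. The pairs were taken from members already called in these libraries, so their separation is no further support. LCN2 had 9.67, 11.8 and 10.1 reads per RNASE7 read in HMU replicates 1 to 3, against 1.11, 1.41 and 1.36 in PBS replicates 1 to 3. The mean log2 ratio was 3.03 higher after HMU, and the groups did not overlap. The two-sided exact permutation p was 0.10, the smallest that 3 libraries against 3 allow (0.15 adjusted over the 3 pairs of called members). LCN2 over DEFB1 was also without overlap, at 128, 115 and 126 in HMU libraries and 10.7, 20 and 43.8 in PBS libraries (exact permutation p = 0.10, adjusted 0.15). RNASE7 over DEFB1 overlapped, at 13.2, 9.76 and 12.5 in HMU libraries and 9.58, 14.2 and 32.3 in PBS libraries (exact permutation p = 0.50, adjusted 0.50). In PBS replicates 1 to 3 the ratios over DEFB1 rest on its 12, 9 and 4 reads. DEFB1 passed the filter on low counts through its HMU libraries.

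Distances to LCN2 were taken over the 6 log2 CPM values of each gene, centred on their own mean. The 16582 genes compared were the tested genes other than members and genes whose symbol begins with LOC. Nearest among them were IVL, KRTAP3-2 and SPRR2D, at Euclidean distances of 0.19, 0.37 and 0.39 on the log2 scale. IVL, which encodes the cornified envelope protein involucrin, had 206, 224 and 184 CPM in HMU libraries, against 5.95, 7.95 and 7.64 CPM in PBS libraries. With only 2 groups, this distance mainly compares the sizes of the changes. KRTAP3-2 rested on 4 or 5 reads in each PBS library, and SPRR2D has close paralogs, so its share of reads is uncertain.

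The closest relatives of the members gave little signal. Of 38 other alpha- and beta-defensin genes in the table, all 38 had 0 reads in every library. Among 13 genes of the RNase A family and its inhibitor, 3 could be tested and edgeR called 0 of them (0 by DESeq2, and 0 at an unadjusted p under 0.05), whereas limma called 1 of them, RNH1, lower on log2(TPM + 1) and on log2(TPM + 0.1). Their median log2 fold change came to 0.17 with TMM, -0.11 with library sizes only, and -0.19 and -0.23 on those TPM scales, against -0.0025 over all genes tested. RNH1, the cytosolic inhibitor that binds RNASE7, averaged 198 ± 25.7 CPM in HMU and 184 ± 3.49 CPM in PBS libraries, with overlapping values. Its direction turned with the scaling: in deposited TPM it averaged 191 ± 10.8 in HMU and 236 ± 6.17 in PBS libraries, without overlap. Of 9 lysozyme relatives only LYG1 could be tested, with a log2 fold change of 0.14 that did not pass (edgeR adjusted p = 0.71) and was -0.15 with library sizes only. Of 18 other lipocalin family genes 4 could be tested, with a median of 0.62, and C8G, a complement component, was called with an edgeR adjusted p of 0.046. That call was lost with DESeq2, with library sizes only, and without any single library other than HMU replicate 3.

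Other antimicrobial genes of epithelia mostly rose. Their list does not hold the members, but it was chosen with earlier results of these data known. Of 34 listed, 21 could be tested, and 19 were higher and 1 was lower, beside 24.8% and 24.9% of all genes tested. The median log2 fold change was 3.87, against -0.0025 over all genes tested. The chemokine CCL20, which has antimicrobial activity and shares the receptor CCR6 with beta-defensins, had 177, 120 and 144 CPM in HMU libraries, against 1.40, 1.70 and 1.30 CPM in PBS libraries. Its log2 fold change was 6.65 ± 0.20 SE (edgeR adjusted p = 5.2e-07). WFDC12, a whey acidic protein family member, had 7.25, 8.33 and 7.04 CPM in HMU libraries, against 0.113, 0.168 and 0.139 CPM in PBS libraries. The lower gene was the chemokine CXCL14, named after its values were seen, at 685, 774 and 612 CPM in HMU libraries and 1106, 1113 and 1142 CPM in PBS libraries. In mean TPM of HMU libraries LCN2 stood next to S100A7 (288) and SAA2 (144).

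**Figure D4:**
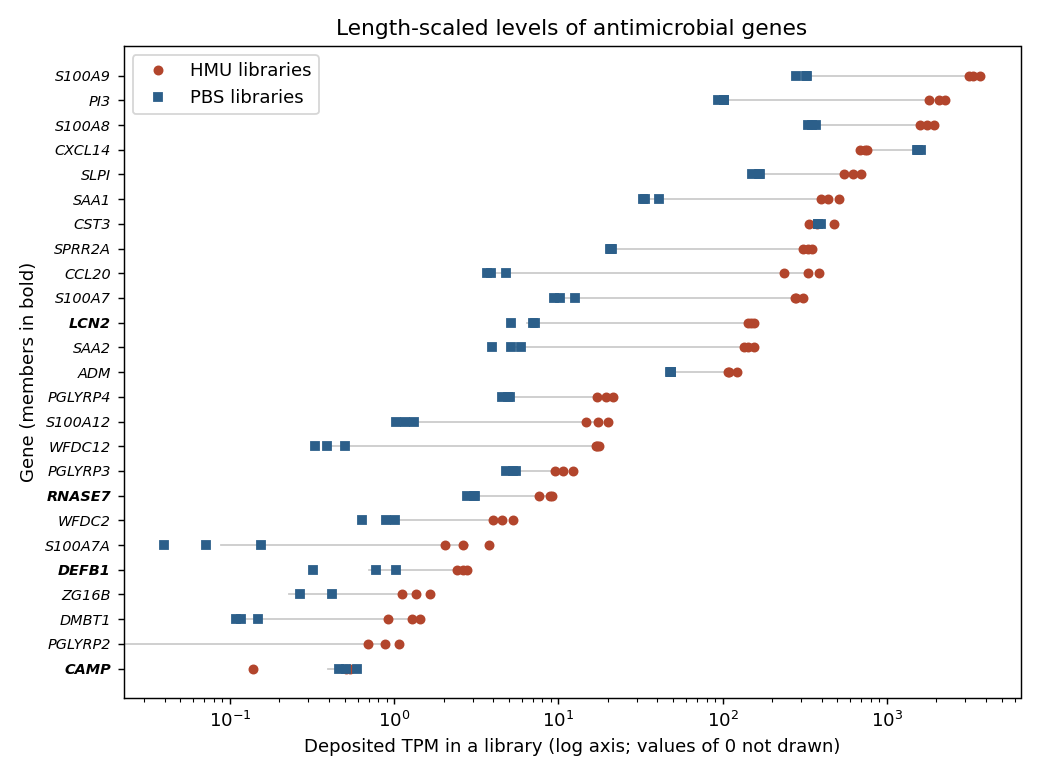
Deposited TPM (log axis) of the testable antimicrobial genes in each library, ordered by the mean in HMU libraries (circles) with PBS libraries as squares; members are in bold, and values of 0 are not drawn. LCN2 lies between S100A7 and SAA2 in HMU libraries, and RNASE7 and DEFB1 lie at 7.58 to 9.19 and 2.40 to 2.77 TPM.

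Receptors and processing enzymes of the members were described next. Of 21 listed, 16 could be tested, and 8 were higher and 3 lower, beside 24.8% and 24.9% of all genes tested. The lower ones numbered 1 without HMU replicate 1, PBS replicate 1 or PBS replicate 3. The median log2 fold change came to 0.32 with TMM, 0.037 with library sizes only and -0.041 on log2(TPM + 1). MMP9, the gelatinase with which LCN2 protein is known to form a complex, had 712, 847 and 674 CPM in HMU libraries, against 29.8, 28.7 and 28.9 CPM in PBS libraries (log2 fold change 4.67 ± 0.11 SE, edgeR adjusted p = 2.3e-07). TLR2, a receptor for bacterial lipoproteins, had 29.9, 22.3 and 26.0 CPM in HMU libraries, against 5.92, 5.22 and 5.05 CPM in PBS libraries (log2 fold change 2.27 ± 0.13 SE). KLK5 and KLK7, kallikreins that cut the CAMP precursor in skin, were chosen for that role. KLK5 averaged 744 ± 95.2 CPM in HMU and 489 ± 14.6 CPM in PBS libraries, and KLK7 averaged 33.9 ± 0.782 CPM in HMU and 24.2 ± 1.04 CPM in PBS libraries (log2 fold changes 0.61 and 0.48, edgeR adjusted p = 0.0015 and 0.00093), and KLK7 was not called on log2(TPM + 1), at 0.081.

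Iron-handling genes were listed because LCN2 withholds iron from microbes. Of 25 listed, 18 could be tested, and 8 were higher and 2 lower, beside 24.8% and 24.9% of all genes tested. Scaling by library sizes only gave 4 higher and 7 lower, and 5 were higher without HMU replicate 1. The median log2 fold change was 0.24, and -0.038 with library sizes only. STEAP4, a ferric reductase, had 131, 102 and 154 CPM in HMU libraries, against 40.3, 38.7 and 44.1 CPM in PBS libraries (log2 fold change 1.65 ± 0.15 SE, edgeR adjusted p = 9.1e-05). TFRC, the transferrin receptor, had 83.8, 60.5 and 88.0 CPM in HMU libraries, against 155, 149 and 145 CPM in PBS libraries (log2 fold change -0.95 ± 0.14 SE, edgeR adjusted p = 0.00095). SLC22A17, described as a receptor for LCN2 and chosen for that role, had 4.83 ± 0.180 CPM in HMU and 5.17 ± 0.197 CPM in PBS libraries and was not called (log2 fold change -0.099, edgeR adjusted p = 0.40). It was called lower with library sizes only, at -0.38 (edgeR adjusted p = 0.0088), and on log2(TPM + 1), at -0.43.

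Of 36 listed inducers and transcriptional regulators known for antimicrobial genes, 32 could be tested. Of these 22 were higher and 7 lower, beside 24.8% and 24.9% of all genes tested. Their median log2 fold change was 0.85, and 0.57 with library sizes only. Without HMU replicate 1, PBS replicate 1 or PBS replicate 3, 4 were lower. ELF3, an epithelial ETS factor, had 261, 225 and 242 CPM in HMU libraries, against 0.438, 0.363 and 0.499 CPM in PBS libraries. IL36G, a cytokine of keratinocytes that induces antimicrobial genes, had 178, 161 and 149 CPM in HMU libraries, against 1.78, 1.61 and 1.77 CPM in PBS libraries (log2 fold change 6.56 ± 0.11 SE, edgeR adjusted p = 1.4e-07). NFKBIZ, which encodes IkB-zeta, needed for the induction of Lcn2 in mouse cells, was chosen for that role and averaged 75.1 ± 19.8 CPM in HMU libraries, against 17.8 ± 0.640 CPM in PBS libraries (log2 fold change 2.08 ± 0.19 SE). HMU replicate 2, which stood apart within its group, was the lowest HMU library for NFKBIZ, at 52.2 CPM, and the highest for LCN2. A link between NFKBIZ and LCN2 was not tested.

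The vitamin D genes on this list were also chosen for their role, since CAMP is a known target of the vitamin D receptor in human cells. VDR, the receptor, had 69.2 ± 3.04 CPM in HMU and 68.3 ± 1.21 CPM in PBS libraries and was not called (log2 fold change 0.019, edgeR adjusted p = 0.83). It turned lower and was called with library sizes only, at -0.26 (edgeR adjusted p = 0.014), and on log2(TPM + 1), at -0.36. CYP27B1, which makes the active hormone, had 39.2 ± 2.41 CPM in HMU and 9.95 ± 1.11 CPM in PBS libraries (log2 fold change 1.98 ± 0.10 SE). CYP24A1, which breaks it down, had 280 ± 52.8 CPM in HMU and 9.13 ± 0.633 CPM in PBS libraries (log2 fold change 4.94 ± 0.16 SE). Both enzymes rose. CAMP, at 3 to 12 reads per library, did not pass the test, and a link between these genes and CAMP was not tested.

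**Figure D5:**
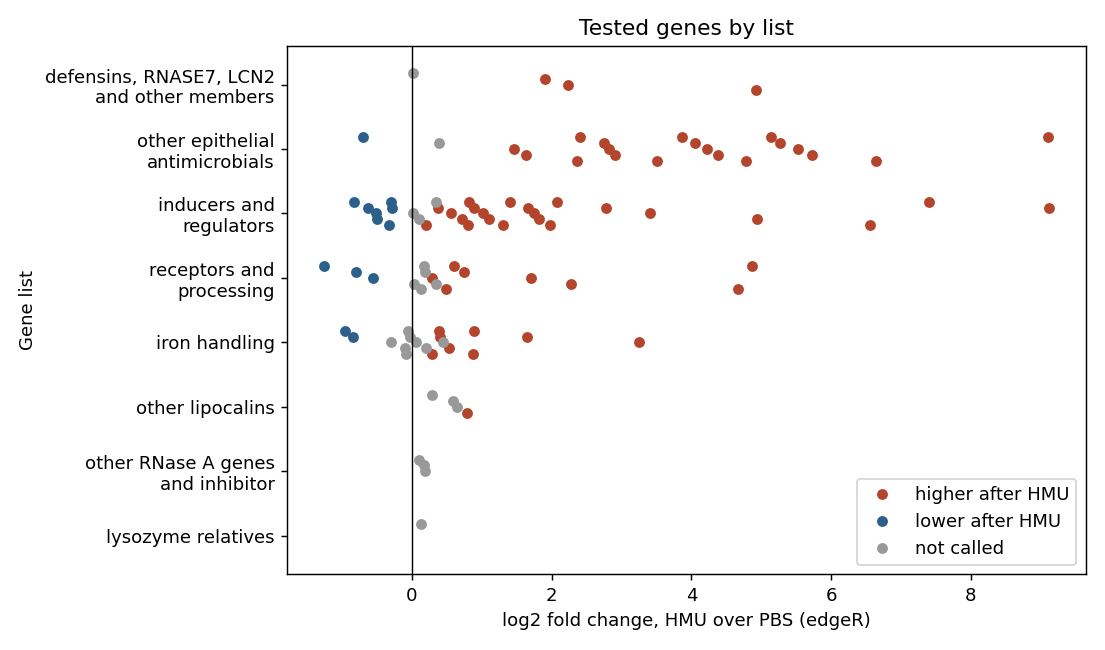
Log2 fold change, HMU over PBS (horizontal axis), of every testable gene in the members' list and in each related list, coloured by the edgeR call. Nearly all points of the other epithelial antimicrobials lie right of 0, and none of the other RNase A genes and lysozyme relatives was called; fitted values of PGLYRP2 and IL17C, with 0 reads in PBS libraries, depend on the prior count.

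Several members are also products of neutrophils, so markers of other cell types were examined. The 8 squamous markers were all present; 4 were higher and 1 was lower (2 and 3 with library sizes only, and 0 lower without PBS replicate 1 or 3). They had a summed level of 62813 to 76246 CPM in HMU and 64253 to 64837 CPM in PBS libraries, led by KRT5. KRT13 and KRT4, keratins of upper layers, had log2 fold changes of 1.94 and 1.05. Of 16 neutrophil and other leukocyte markers, 8 had 0 reads in all libraries, among them the granule genes ELANE, CTSG and AZU1, and 11 were under 10 reads in every library. Their summed level was 121 to 137 CPM in HMU and 58.4 to 60.9 CPM in PBS libraries, most of it from CD68, a lysosomal protein gene, and all 3 that could be tested were higher, CD14 with a log2 fold change of 2.14. Of 10 columnar and glandular markers, the sum was 743 to 1008 CPM in HMU and 643 to 670 CPM in PBS libraries, led by KRT8; 3 of 5 tested were higher and 0 lower (0 lower by DESeq2 too), and KRT7 and PAX8 had log2 fold changes of 2.66 and 1.15. The sum of 9 fibroblast and endothelial markers, led by COL1A1, was 96.0 to 108 CPM in HMU and 120 to 124 CPM in PBS libraries, with 4 of 7 tested higher and 2 lower (1 without any single PBS library). A filter of 1 CPM in 3 libraries left 2 of them to test, with 0 higher and 1 lower. PDGFRA and CDH5 had 0 reads in every PBS library. Their part in the results was not tested, and in bulk RNA fewer cells of a type and less RNA per cell cannot be told apart.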

How the data were processed

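Members and lists were chosen with earlier results of these data known. RNA of 6 libraries (3 HMU, 3 PBS) was sequenced from stranded mRNA libraries, per the labels. Per the submitters' processing notes, the build was GRCh38 and the tools were HISAT2 2.1.0 and StringTie 2.1.3b, besides Trimmomatic 0.38 and FastQC 0.11.7. How reads were counted, with which annotation, whether by strand and with what treatment of multiple hits, was not given in the sources used here. Per the file headers, the deposited read counts are whole numbers per gene, not normalised; the deposited TPM are scaled by length to a fixed sum and the deposited FPKM by length and library (FPKM were not used). Treated columns are headed HMO and were taken as HMU.

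Count tests used edgeR 4.0.16 under R 4.3.3 (filterByExpr, TMM, estimateDisp, glmQLFit, glmQLFTest, group as the only term); SE is the log2 fold change over the square root of F. The biological coefficient of variation was 11.9%. Fits were also run on simulated counts. In these few genes changed and all genes had the same dispersion, unlike the data here, so that run is no support for the calls. Named genes were the members and, in each list, the 2 called genes of largest absolute change among those averaging at least 1 CPM. The most abundant marker of each marker list and the 3 genes nearest LCN2, with members and LOC symbols left out, were also named. Alternatives were DESeq2 1.42.0, other scalings and filters, limma 3.58.1 on log2(TPM + 1) and log2(TPM + 0.1), a replicate block, stricter thresholds, summed copies and leaving out each library. Intervals and floors cover counting error only. Promoter sequences are from RefSeq (GRCh38.p14).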

Additional observations from a re-analysis of the deposited data

How the results depend on the processing

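LCN2, RNASE7 and DEFB1 kept their direction and their call under every alternative that could test them; a filter of 1 CPM in 3 libraries removed DEFB1 and CAMP. Log2 fold changes ran from 4.34 to 5.01 for LCN2, from 1.26 to 1.94 for RNASE7 and from 1.10 to 2.60 for DEFB1, each lowest on log2(TPM + 1), a scale that understates changes of low genes. On log2(TPM + 0.1) they were 4.52, 1.49 and 1.85, also below the main fit. The median of all genes was -0.38 on that scale, against -0.0025 in the main fit. CAMP was called under none of the alternatives, and its log2 fold change turned negative with library sizes only (-0.27), on log2(TPM + 1) (-0.14) and log2(TPM + 0.1) (-0.46) and with a replicate block (-0.042); leaving out single libraries gave -0.36 to 0.41. Over all genes, 4457 were higher and 4487 lower; library sizes only gave 2414 and 7855, log2(TPM + 1) 1975 and 9153, and log2(TPM + 0.1) 1965 and 9126. KRT5 turned to -0.19 with library sizes only, -0.31 on log2(TPM + 1) and -0.31 on log2(TPM + 0.1), and KRT8 to -0.051, -0.18 and -0.18 in the same order. In that order RNH1 turned to -0.18, -0.31 and -0.31, VDR to -0.26, -0.36 and -0.38 (-0.014 to 0.056 with single libraries left out), and LYG1 to -0.15, -0.17 and -0.32 (-0.17 to 0.28 with single libraries left out); these genes were added to the alternatives after the data were seen. The cause was not tested. COL1A1 was not called without any single PBS library (edgeR adjusted p = 0.053 to 0.066). Same-numbered libraries did not deviate together (correlations -0.019, 0.035 and 0.048), so the replicate number was not taken as a pairing; the block gave 4173 higher and 4250 lower genes and the same member calls. Depth limits what can be called for the 6 genes with at most 14 reads: in the same test IL17C was called with 15, 15 and 27 reads in HMU libraries and 0 in each PBS library.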
